A study of Rattus norvegicus with 24 samples.

Results

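The amygdala of saline-injected rats was set against the other 5 brain regions of the study, using RNA of saline rats alone. The comparison rests on the saline channels of the 4 arrays labelled amygdala, out of 24 saline channels in all, with 4 channels from each of cortex, hippocampus, hypothalamus, midbrain and ventral striatum. Every array carried RNA of saline rats in one dye and RNA of rats given MK-801 in the other. The sample titles name these Control+Saline, Control+high and Control+low, without saying what the shared word Control stands for. MK-801 enters and blocks the open ion channel of NMDA receptors. The animals were male Wistar rats, 9 weeks old in the sample labels and 10 weeks in the design text. Of the 9 rats, 3 had saline and the others MK-801 (0.08 mg/kg as low dose, 0.16 mg/kg as high dose), all given into the peritoneal cavity, and brains were taken after 40 min. In each region the saline RNA was green (Cy3) on 2 arrays and red (Cy5) on 2, and its partner was low-dose RNA on 2 and high-dose RNA on 2. How many rats made up an extract, and whether the 4 saline channels of a region held different extracts, is not stated. The 2 arrays of a dye swap were therefore averaged, giving 2 values per region and 12 in all, and p-values measure only the spread between these values, which may be technical. Since the study had 3 saline rats, the 6 regions share animals and are not independent, and no channel is tied to a rat by the labels, so the fit could not take the animal as a block. Each region lay on a slide of its own, so region and slide cannot be told apart.

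The amygdala is a cluster of nuclei in the temporal forebrain that links sensory input to fear, reward and social behaviour. Its basolateral nuclei hold cortex-like glutamatergic neurons, and its central and medial nuclei hold mostly striatum-like GABA neurons rich in neuropeptides. It borders the lateral ventricle, whose choroid plexus secretes cerebrospinal fluid, and its ventral surface is covered by meninges, sheets of fibroblasts that make collagen.

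Levels are log2 of normalised spot intensity, and differences are the amygdala minus the mean of the other 5 region means. A gene was tested where its probe was well above background on all 4 arrays of at least 1 region, which held for 24895 of 35526 features, 12245 of them with a gene symbol. Genes were called at a limma adjusted p under 0.05 together with a change of at least 2-fold. Median net signal over the 24 channels was 47.3 to 349 intensity units and 56.8% to 89.7% of spots were well above background. For the amygdala these values were 47.9 to 301 and 56.8% to 79.8%. Amygdala replicate 1, labelled Cy3 with a high-dose partner, had the lowest share of spots above background of all 24. Its level stood apart from those of the other 3 amygdala channels, by Dixon's criterion for 4 values, in 20.9% of genes, against 0.232% to 1.23% for the other amygdala channels and 0.187% to 10.1% for the 20 channels of other regions. Of the 68 genes named by rule, 65 kept their call without it. In every result given without 1 amygdala channel, the other array of its dye swap stood alone. Dye was then unbalanced in the amygdala and no dye term was fitted. Such results do not tell the loss of the channel apart from a shift by dye.

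Amygdala RNA differed from the mean of the other regions at 724 of 24895 genes, or 2.91%. Of these, 484 were higher (1.94% of genes tested) and 240 were lower (0.964%). From the scanner's processed signals, scaled to the 75th percentile, the counts were 1071 and 797. Without amygdala replicate 1 the counts were 512 and 230, with 430 of the 484 and 204 of the 240 called again in the same direction. An adjusted p under 0.05 alone held for 4788 genes (19.2%). The amygdala was the highest of the 6 regions in 379 of the 484 higher genes and the lowest in 170 of the 240 lower ones. In 55 genes (0.221%) it was called higher than each of the 5 regions, and in 8 (0.0321%) lower than each. Of the 55, 31 have a symbol. Besides genes described with their values, they were Ccdc33, Ch25h, Cltrn, Fam180a, Fmo1, Grxcr1, Kcne2, Rock1, Scgb1c1 and Srpk3. The 3 of the 8 with a symbol were Scn4b, Nefh and Mag.

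**Figure D1:**
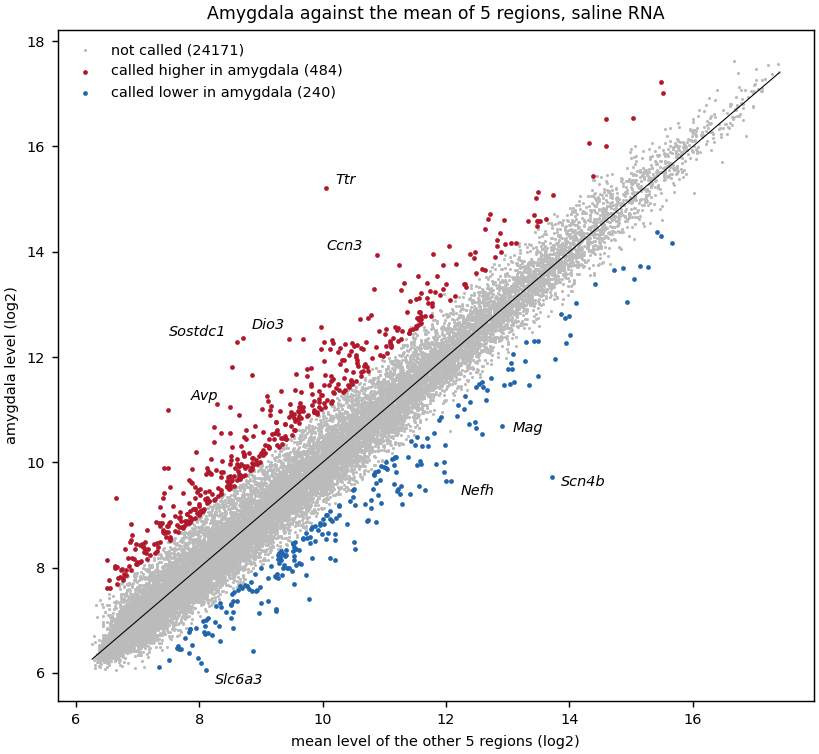
Level of each of 24895 genes in the amygdala (vertical axis, log2) against the mean level of the other 5 regions (horizontal axis, log2), saline RNA, 1 point per gene. Red points are the 484 genes called higher in the amygdala, blue points the 240 called lower, and the line marks equal levels; Ttr lies farthest above it and Scn4b farthest below.

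By count of genes called the cortex was the nearest region, but from processed signals it was the ventral striatum, with 2304 genes against 2751 for cortex. Against cortex 807 genes differed (3.23%), with 454 higher in the amygdala (1.82%) and 353 lower (1.41%). Against ventral striatum 1245 differed (4.98%), 684 higher (2.74%) and 561 lower (2.24%). Against hippocampus 1738 differed (6.96%), 997 higher (3.99%) and 741 lower (2.97%). Against midbrain 1939 genes differed (7.77%), 1090 higher (4.37%) and 849 lower (3.4%), and against hypothalamus 2902 (11.6%), 1641 higher (6.57%) and 1261 lower (5.05%). Pearson's correlation of levels across genes, which are not independent replicates, ran in the same order, from 0.982 for cortex to 0.955 for hypothalamus. By the median size of the difference the ventral striatum was nearest instead, at 0.209 log2 units against 0.239 for cortex, 0.259 for midbrain, 0.304 for hippocampus and 0.341 for hypothalamus. Of the genes called lower in the amygdala, 103 were highest in hypothalamus and 84 in midbrain. Only the midbrain was scanned on the same day as the amygdala.

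A few probe sequences show what was read at points that turn on the probe. Avp, the precursor of vasopressin, has 2 probes that differ in the size of the amygdala difference, 2.54 for the one used and 1.39 for the other. Both read through an open frame, with no stop codon in 2 of the 3 forward frames. Or12j4 and Or10g9b, olfactory receptor genes that were both among the 8 genes with a symbol that had the most negative differences, have probes that begin with a start codon and share a stretch, shown in capitals, in which 18 of 20 bases are equal. All 60-base probes are written 5′ to 3′ as in the files, whose coordinates refer to the rn3 build.
Avp, probe used, chromosome 3 from 118110714 to 118110655: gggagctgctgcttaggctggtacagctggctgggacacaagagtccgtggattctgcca
Avp, other probe, chromosome 3 from 118111063 to 118110779: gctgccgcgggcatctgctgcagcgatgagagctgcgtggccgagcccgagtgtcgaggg
Or12j4, chromosome 1 from 200578298 to 200578357: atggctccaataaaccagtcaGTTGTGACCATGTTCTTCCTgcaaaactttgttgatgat
Or10g9b, chromosome 8 from 42955059 to 42955000: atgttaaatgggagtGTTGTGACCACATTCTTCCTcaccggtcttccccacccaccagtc

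Genes of the choroid plexus gave the largest difference of all. Ttr encodes transthyretin, the thyroxine and retinol carrier that choroid plexus cells secrete. Its saline level in the 4 amygdala channels was 14.83, 15.47, 15.26 and 15.32, and in the other 20 channels it ran from 6.52 to 13.65 with a median of 8.66. All 4 amygdala channels lay above all others, and next in order came the hypothalamus at 13.61 and the hippocampus at 12.95, while the cortex had 6.88. The difference was 5.17 ± 0.16 (SE of the limma fit, n = 12 values, limma adjusted p = 4.69e-08), 36.0-fold. Sostdc1, which encodes a secreted antagonist of BMP and Wnt signals, had 12.58, 12.21, 12.14 and 12.24 in the amygdala against 6.54 to 10.61 elsewhere. It was higher by 3.68 ± 0.12 (limma adjusted p = 6.07e-08). Kcnj13, an inward rectifier potassium channel of transporting epithelia, had 11.44, 10.81, 10.85 and 10.86 against 6.36 to 8.84, a difference of 3.50 ± 0.17 (limma adjusted p = 5.8e-07).

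Of 12 choroid plexus and ependymal markers tested, 6 were higher in the amygdala and 0 lower, with a median of 0.90 beside -0.03 for all genes tested. Counts of genes called in this and the later lists stand beside 1.94% higher and 0.964% lower over all genes tested. Lists and members were chosen with earlier results of these data known, so these counts are no independent test. Without amygdala replicate 1, again 6 of the 12 were higher and 0 lower. The water channel gene Aqp1 (1.06), the folate receptor gene Folr1 (1.10) and Clic6 of the chloride intracellular channel family (1.15) were also called, and Folr1 stood at 0.91, short of 2-fold, without amygdala replicate 2. The cilia regulator Foxj1 was not called, at 0.41 ± 0.16, and Enpp2, a lysophospholipase made by choroid plexus, stood at -0.32 ± 0.19. In the list as a whole the amygdala was not the highest region. Its median level relative to the mean over 6 regions was 0.75 (0.76 to 0.90 by channel), and that of the hypothalamus was 1.08 (0.96 to 1.13). The cortex had the lowest, at -1.21.

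Meningeal and fibroblast genes had the largest share of members called among the 27 lists. This list, like the others, was chosen with earlier results of these data known. Of 13 tested, 12 were higher and 0 lower, again 12 without amygdala replicate 1. All 13 had their highest level in the amygdala, beside 3440 of all 24895 genes. The median difference was 1.60. Fmod, a collagen-binding proteoglycan, had 14.14, 13.65, 13.55 and 13.63 in the amygdala and 10.58 to 12.32 elsewhere, with no overlap, a difference of 2.50 ± 0.13 (limma adjusted p = 7.7e-07). Col1a2 and Col1a1, the chains of type I collagen, were higher by 2.06 ± 0.17 and 1.99 ± 0.20, and Col3a1, of type III collagen, by 1.60 ± 0.11. The other probes of Col1a1 gave 0.35 and 0.96, and that of Col1a2 gave 1.41. Ogn, another small proteoglycan, was higher by 1.90 ± 0.15, and its other probe gave 1.97. Aldh1a2, which makes retinoic acid in meninges, had 9.57, 9.91, 10.11 and 9.94 against 6.40 to 9.05 elsewhere, higher by 2.47 ± 0.16 (limma adjusted p = 3.38e-06). Also called were the growth factor gene Igf2 (1.65), its binding protein gene Igfbp2 (1.53), the prostaglandin D synthase gene Ptgds (1.51) and the transporter genes Slc6a13 (1.47) and Slc22a6 (1.39). Lum, the exception, stood at 0.83 ± 0.14 (limma adjusted p = 0.00221), short of 2-fold.

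Relative to the mean over 6 regions, the meningeal list had a median of 1.33 in the amygdala (1.36 to 1.50 by channel), 0.44 in the cortex, -0.02 in the midbrain, -0.20 in the hippocampus, -0.69 in the hypothalamus and -0.79 in the ventral striatum. Of 7 blood cell markers (median -0.08) and 14 endothelial and mural markers (median 0.19), 0 were called by limma in either direction. At an unadjusted p under 0.05 there were 3 of each list, and 8141 of all 24895 genes. An adjusted p under 0.05 alone held for 1 blood cell marker and 2 endothelial and mural markers, and for 4788 of all genes. Members of the choroid plexus and meningeal lists made up 10 of the 55 genes called highest of 6, of which 31 have a symbol. Genes of these tissues outside the lists were not counted. How far pieces of choroid plexus or meninges taken with the amygdala contribute to the other differences was not tested.

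**Figure D2:**
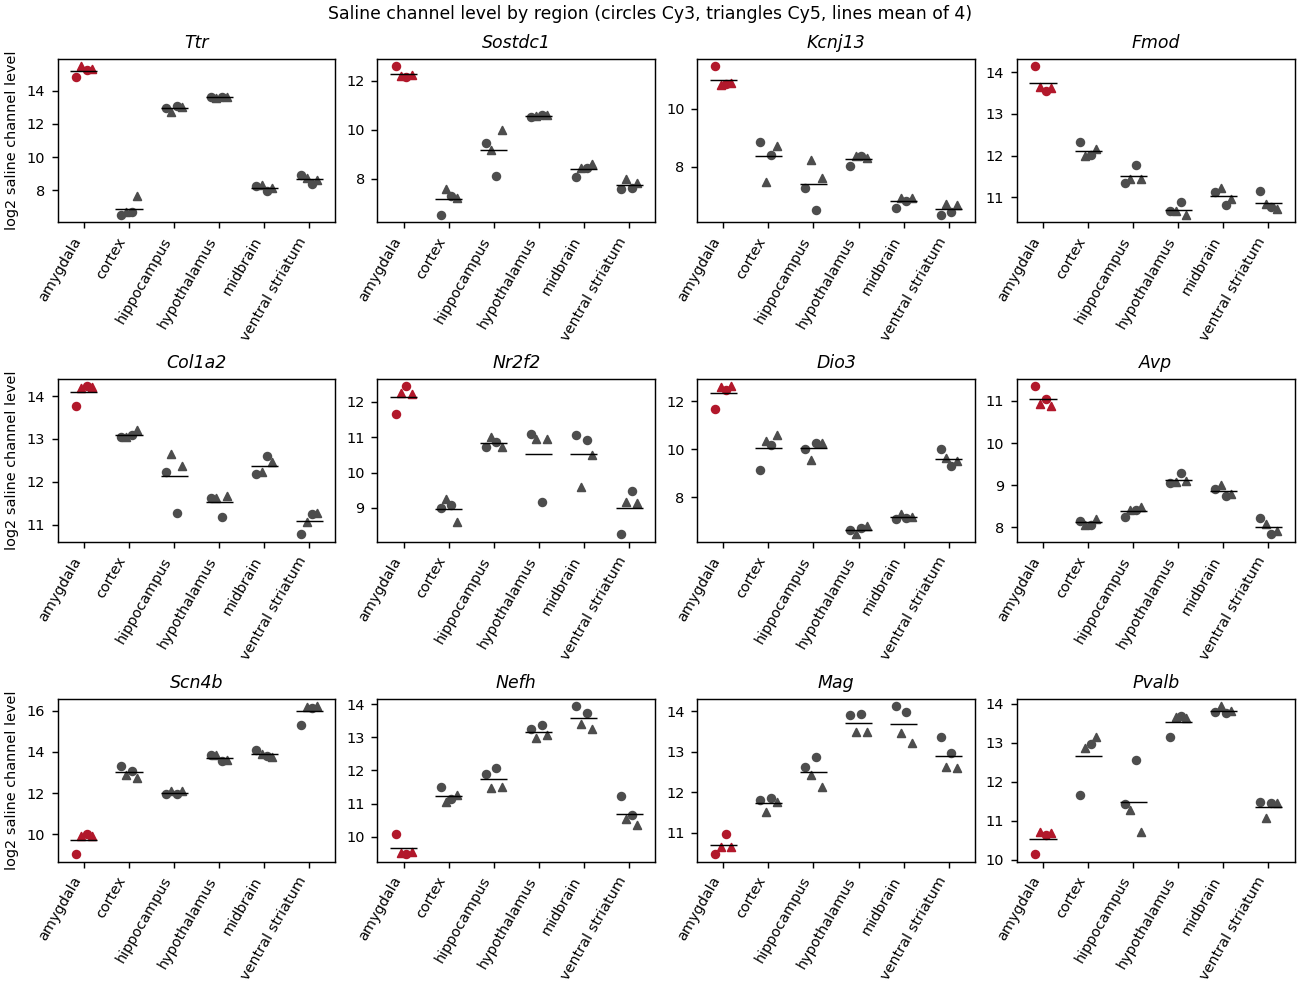
Saline level (log2, vertical axis) of 12 genes in each of 6 regions, with 4 channels per region; circles are saline RNA labelled Cy3, triangles Cy5, and lines the mean of the 4. The amygdala channels, in red, lie above all 20 others for Ttr, Sostdc1, Kcnj13, Fmod, Col1a2, Nr2f2, Dio3 and Avp, and below all others for Scn4b, Nefh and Mag; for Pvalb, 3 of 4 lie below.

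The labelled tissue was set against markers of amygdala neurons. Of 17 basolateral markers tested, 2 were higher and 0 lower, and 3 were higher without amygdala replicate 1. Their median was 0.39, and 4 of 17 had their highest level in the amygdala, beside 3440 of all 24895 genes. Against cortex alone the median was -0.17, and against hippocampus 0.06. Nr2f2, which encodes the nuclear receptor COUP-TFII, was the one basolateral marker called highest of 6. It had 11.65, 12.25, 12.44 and 12.23 in the amygdala and 8.25 to 11.08 in the other 20 channels, a difference of 2.17 ± 0.23 (limma adjusted p = 8.44e-05). Cyp26b1, an enzyme that breaks down retinoic acid, was higher by 1.78 ± 0.22 (limma adjusted p = 0.000271), but its amygdala channels, with a mean of 12.26, overlapped those of the cortex, with 12.09. The transcription factor gene Fezf2 (0.96 ± 0.15), the gastrin-releasing peptide gene Grp (0.58 ± 0.14) and Tfap2d (0.36 ± 0.12) were not called.

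Of 19 markers of central, medial and intercalated nuclei, 1 was higher and 0 lower, with a median of -0.15. Penk, the precursor of enkephalins, had 13.16, 13.80, 13.81 and 13.83 in the amygdala. The ventral striatum stood far above it at 16.30, and the other 4 regions below at 10.93 to 12.12. The difference of 1.03 ± 0.16 (limma adjusted p = 0.00116) lay just past 2-fold and was 0.86 without amygdala replicate 2. A second Penk probe, much dimmer, gave -0.20. The somatostatin gene Sst stood at 0.89 ± 0.11, with 14.54 in the amygdala, 14.72 in the cortex and 14.50 in the ventral striatum. Prkcd, which marks central amygdala and thalamic neurons, stood at -0.79 ± 0.10, with 11.62 in the amygdala and 15.86 in the hypothalamus piece. The corticotropin-releasing hormone gene Crh stood at -0.15 ± 0.12, and the transcription factor genes Isl1 and Foxp2 at -0.63 ± 0.11 and -0.85 ± 0.14. Of the 19, 1 had its highest level in the amygdala, beside 3440 of all 24895 genes.

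Markers of the other regions were read in the same way. Striatal projection neuron markers had a median of -3.07 against ventral striatum (1 of 21 higher and 2 lower than the mean of 5). Hippocampal markers stood at -0.67 against hippocampus, with 2 of 12 called higher than the mean of 5. One was Ccn3, a secreted matricellular protein, at 14.26, 13.84, 13.80 and 13.83 against 8.02 to 13.58 elsewhere, a difference of 3.06 ± 0.12 (limma adjusted p = 1.86e-07). The cortex followed closely at 13.44. The other was Wfs1, which encodes an endoplasmic reticulum protein, at 1.05 ± 0.14, lost without amygdala replicate 1 at 0.92. Cortical glutamatergic markers stood at -0.48 against cortex (1 of 16 higher, Neurod2 at 1.82 ± 0.12, and 1 lower). Midbrain and hindbrain neuron markers were lower in 6 of 17 cases and higher in 1 (median -0.49), and thalamic markers lower in 1 of 14 and higher in 0 (median -0.36). Of 20 hypothalamic markers and neuropeptides 2 were higher and 1 lower than the mean of 5, and their median against hypothalamus was -0.09, near that of all genes (-0.03). The amygdala stood at -1.91 against that piece in thalamic markers, which there were 1.66 above their mean over 6 regions.

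**Figure D3:**
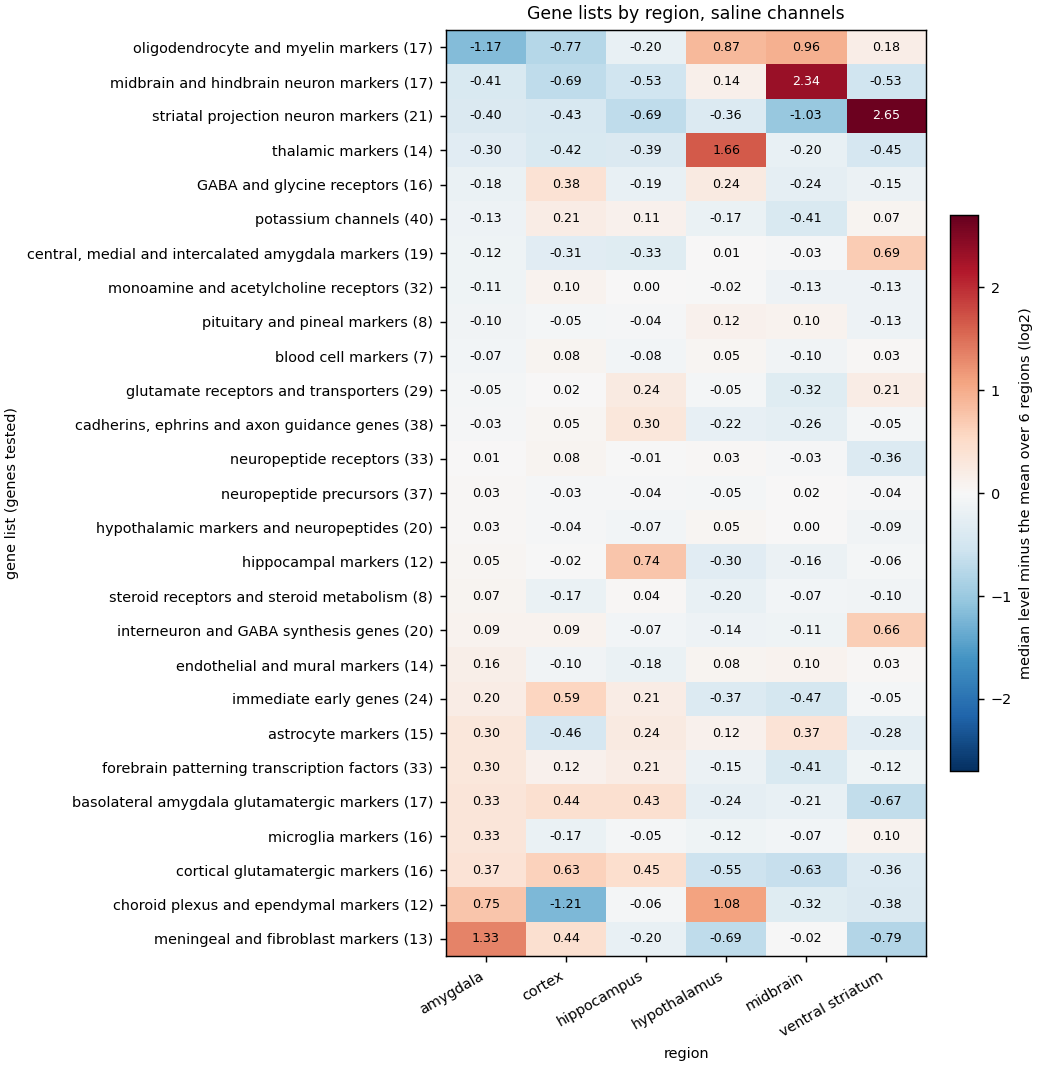
Median level of each of 27 gene lists in each region relative to the gene's mean over 6 regions (log2; number of genes tested in parentheses), with lists ordered by the median amygdala difference. Meningeal genes are highest in the amygdala at 1.33 and myelin genes lowest there at -1.17, whereas the lists of amygdala neuron markers stand at 0.33 and -0.12 there.

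Transcription factors that pattern the forebrain were higher in 7 of 33 cases and lower in 0, with a median of 0.36 that was 0.15 without amygdala replicate 1. Nr2f2 was the one of them called highest of 6. Neurod2, a factor of cortical glutamatergic neurons, had a mean of 11.36 in the amygdala, with hippocampus (13.05) and cortex (11.66) above it. Lhx2 (1.59), Neurod1 (1.48) and Emx2 (1.19) were also called, each with a mean level under that of the hippocampus. Lhx2 lacked 1 amygdala channel, whose spot was an outlier, so its high-dose pair was left out of the fit and the amygdala was 1 value, assumed to vary like the other regions. The other probe of Emx2 gave -0.07. Nr2f1, the close relative of Nr2f2, had a mean of 15.43 in the amygdala and region means of 13.32 to 14.91 elsewhere, a difference of 1.05 ± 0.16, with 0.45 at its other probe.

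Genes for cell adhesion and axon guidance were mixed, with 5 of 38 higher and 1 lower and a median of -0.03, that of all genes. Cdh22, a cadherin, had 13.92, 13.34, 13.49 and 13.40 against 10.53 to 12.79 elsewhere and was called highest of 6 at 1.69 ± 0.14 (limma adjusted p = 1.4e-05). Its other probe gave 0.07, and the mean over both probes, 0.88, was not called. The files place both probes on another chromosome than the RefSeq table does for this gene, so the name may not hold. Plxnd1, a semaphorin receptor, was higher by 1.61 ± 0.23 and the netrin receptor gene Unc5d by 1.49 ± 0.12, with their other probes at 0.47 and 0.30. The amygdala channels of Plxnd1 overlapped those of the ventral striatum. Those of Unc5d (mean 10.96) overlapped those of the hippocampus, which had the higher mean, 11.19. The ephrin receptor gene Epha5 was higher by 1.18 ± 0.20, with 0.70 at its other probe and channels that overlapped those of the hippocampus, and the protocadherin gene Pcdh8 by 1.08 ± 0.16. Cdh6 had a difference of -1.26 ± 0.11, and its amygdala channels (mean 9.66) overlapped those of the hippocampus (mean 9.80).

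Neuropeptide precursors were higher in 3 of 37 cases and lower in 1 (median 0.04). Avp stood out at 11.35, 10.92, 11.04 and 10.88 in the amygdala, against 7.83 to 9.28 in the other 20 channels, and 9.13 in the hypothalamus, where vasopressin is classically made. It was higher than the mean of 5 by 2.54 ± 0.11 (limma adjusted p = 4.19e-07) and higher than each of the 5 regions. The related oxytocin gene Oxt was not called, at 0.51 ± 0.10, with 7.96 in the amygdala and 9.48 in the hypothalamus. Vip, the vasoactive intestinal peptide gene, was higher by 1.27 ± 0.28 (limma adjusted p = 0.00919), with cortex (13.84) and hypothalamus (13.37) above the amygdala (13.18). The gene for the feeding peptide melanin-concentrating hormone, Pmch, had a difference of -1.20 ± 0.11, which came from the hypothalamus at 13.07 against 8.31 in the amygdala. Among 33 neuropeptide receptor genes 2 were higher and 0 lower (median 0.01). These were the thyrotropin-releasing hormone receptor gene Trhr, at 8.11, 8.79, 8.65 and 8.89 against 6.23 to 7.93 elsewhere (1.71 ± 0.15, limma adjusted p = 2.92e-05), and the somatostatin receptor gene Sstr1 (1.47 ± 0.16).

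Some of the largest differences fell outside these lists. Dio3, the deiodinase that inactivates thyroid hormone, had 11.68, 12.61, 12.49 and 12.63 in the amygdala and 6.44 to 10.61 in the other channels. It was higher by 3.65 ± 0.19 (limma adjusted p = 9.17e-07), and by 0.54 at its other, dimmer probe. Tnnt2, which encodes a troponin T, was higher by 3.29 ± 0.19, the exchanger gene Slc9a2 by 2.81 ± 0.13, and the chemokine gene Ccl19 by 2.67 ± 0.14. Slc9a2 overlapped with the hippocampus (11.66 against 11.42), and the other pair overlapped with no region. Defb1, an antimicrobial defensin, had 9.19, 9.29, 9.45 and 9.37 in the amygdala and was not well above background in any channel of hippocampus, hypothalamus or midbrain. With the lowest signal well above background put in its place there, where that was higher, the gene was at least 5.95-fold higher. The collectin gene Colec12 (2.04 ± 0.12) and the glypican gene Gpc3 (1.88 ± 0.21) were also called highest of 6.

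Myelin and oligodendrocyte genes had the most members lower of the 27 lists. Of 17 tested, 12 were lower and 0 higher, 11 and 0 without amygdala replicate 1, and the median was -1.40. The amygdala had the lowest level of the 6 regions for 12 of the 17, and for 4211 of all 24895 genes. In these bulk samples fewer oligodendrocytes and less RNA per cell cannot be told apart. Mag, which encodes myelin-associated glycoprotein, had 10.47, 10.64, 10.97 and 10.66 in the amygdala and 11.50 to 14.13 elsewhere. Its difference was -2.22 ± 0.11 (limma adjusted p = 7.7e-07), and it was called lower than each of the 5 regions. Mog, of the outer myelin surface, had -1.81 ± 0.15, Opalin -1.68 ± 0.12 and Mbp, the myelin basic protein gene, -1.57 ± 0.16. Second probes gave, in that order, -1.76, -1.42 and -1.62. The channels of Mog and Mbp overlapped those of the cortex, whereas those of Mag and Opalin overlapped with no region. Lineage regulators moved less, with Olig1 at -0.83, Sox10 at -0.84 and Olig2 at -0.24, none of them called. Cortex was the nearest region, at a median of -0.25, and hypothalamus and midbrain were farthest at -2.11 and -2.19. Klk6, a protease abundant in oligodendrocytes, had -2.36 ± 0.12, with 9.48 to 10.02 in the amygdala and 10.39 to 13.68 elsewhere.

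The promoters of the myelin genes were searched for the letters ACAAAG or CTTTGT, a core bound by SOX proteins, of which SOX10 is the known activator of myelin genes. The letters were chosen after the values were seen. RefSeq promoters of the GRCr8 build, 300 bases around the gene start, were found for 9 of the 12 genes called, 10 promoters in all. Of the 10, 4 (40%) held the letters, in Cnp, Mag, Mbp and Opalin, against 18.8% of all 33469 promoters, and a match is only a description of the letters. The promoter of Mag is shown, on the minus strand at chr1:95290995-95291294 of GRCr8, with its 1 match in capitals, because Mag was the myelin gene called lowest of 6.
Mag: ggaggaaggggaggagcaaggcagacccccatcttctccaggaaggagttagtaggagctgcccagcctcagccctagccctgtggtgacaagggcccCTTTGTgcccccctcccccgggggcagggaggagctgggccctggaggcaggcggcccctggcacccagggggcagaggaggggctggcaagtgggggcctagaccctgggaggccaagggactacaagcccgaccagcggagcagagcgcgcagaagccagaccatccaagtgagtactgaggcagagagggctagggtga

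Scn4b, an auxiliary subunit of sodium channels, had the most negative difference of all 24895 genes. Its levels were 9.03, 9.91, 9.99 and 9.91 in the amygdala, against 11.94 to 16.23 elsewhere, from 12.02 in the hippocampus to 15.96 in the ventral striatum. Its difference was -4.00 ± 0.15 (limma adjusted p = 1.49e-07), and -1.03 at a second, dimmer probe. No amygdala channel reached the lowest of the other 20. Nefh, the heavy neurofilament subunit of large axons, had 10.07, 9.52, 9.47 and 9.55 against 10.35 to 13.95, a difference of -2.43 ± 0.13 (limma adjusted p = 7.99e-07). Pvalb, the calcium buffer of fast-spiking interneurons, had 10.14, 10.71, 10.63 and 10.69 against 10.70 to 13.95, a difference of -2.03 ± 0.18 (limma adjusted p = 2.32e-05), and its range overlapped that of the hippocampus. Of 40 potassium channel genes 1 was higher and 3 were lower (median -0.16). The lower ones were Kcnc1, of fast repolarising currents (-1.31 ± 0.18), Kcna1, of axonal channels (-1.22 ± 0.18), and Hcn2, a pacemaker channel gene (-1.19 ± 0.13). Kcnh3 was higher by 1.68 ± 0.11, with cortex above the amygdala at 11.79 against 11.33.

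The olfactory receptor probes printed with the Avp probes also read low in the amygdala. Or12j4 had 6.97, 7.25, 7.48 and 6.98 in the amygdala and 7.61 to 10.57 elsewhere, with region means from 8.07 in ventral striatum to 10.41 in hypothalamus. Its difference was -2.06 ± 0.11 (limma adjusted p = 7.7e-07). Or10g9b had 8.90, 8.41, 8.44 and 8.22 against 9.24 to 11.70, with means from 9.35 in ventral striatum to 11.59 in hypothalamus, a difference of -2.02 ± 0.14 (limma adjusted p = 1.02e-05). Both ranked the 6 regions in the same order, and neither overlapped with another region. Whether the shared bases make both probes bind one transcript was not tested.

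Of 20 interneuron and GABA synthesis genes 3 were higher, Vip and Reln (1.19 ± 0.25) among them, and 1, Pvalb, was lower. The GABA synthesis genes Gad1 and Gad2 stood at -0.16 and -0.13. Reln lacked the third amygdala channel, an outlier spot, so its low-dose pair was left out of the fit and the amygdala was again 1 value. At 0.91 without amygdala replicate 1 it was not called. Of 16 GABA and glycine receptor genes 0 were called by limma in either direction, with a median of -0.22. None reached 2-fold, but 7 had an adjusted p under 0.05 (4788 of 24895 over all genes). At an unadjusted p under 0.05 there were 11 (8141 over all genes). Of 29 glutamate receptor and transporter genes 1 was lower, Grm4 (-1.08 ± 0.14, and -0.96 without amygdala replicate 2), and of 32 monoamine and acetylcholine receptor genes 2 were lower, Drd2 (-1.11 ± 0.11) and Adra1b (-1.04 ± 0.13). Adra1b stood at -0.95 without amygdala replicate 1 and -0.94 without replicate 3, short of 2-fold, and its other probes gave -0.26 and -0.74. The amygdala was not the lowest region for Adra1b or Grm4. Adra1b had 9.81 there, 8.75 in hippocampus, 9.25 in ventral striatum and 13.38 in hypothalamus. Grm4 had 8.93 in the amygdala, 8.70 in hippocampus and 11.68 in hypothalamus. Of 8 steroid receptor and metabolism genes 0 were called by limma, with 4 at an unadjusted p under 0.05, read against the same 8141. At an adjusted p under 0.05 alone there were 3, read against the same 4788. Th, which makes the dopamine precursor, had 7.10 to 7.20 in the amygdala and 13.80 in the midbrain (-1.83 ± 0.10). The dopamine transporter gene Slc6a3 had 13.52 in midbrain and 8.74 in hypothalamus. It was not well above background in amygdala (6.06), cortex (6.04), hippocampus (6.18) or ventral striatum (6.06). With the lowest signal well above background put in place of its amygdala level, it was 3.1-fold lower than the mean of 5. That mean takes the dim readings of cortex, hippocampus and ventral striatum as they are.

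Immediate early genes, which respond within minutes to neuronal activity, were higher in 4 of 24 cases and lower in 0 (median 0.24). Egr2 had 10.18, 11.26, 11.28 and 11.28 in the amygdala and a mean of 11.97 in cortex, 11.16 in ventral striatum, 8.89 in hippocampus, 7.05 in midbrain and 6.62 in hypothalamus. Its difference was 1.86 ± 0.15 (limma adjusted p = 1.27e-05), and those of Egr4, Nr4a3 and Egr1 were 1.71, 1.20 and 1.19. All 4 had a higher mean in cortex than in the amygdala. The list as a whole stood at -0.56 against cortex and 0.68 against midbrain. Fos was not called, at 0.21 ± 0.30. All rats had been injected, so these are levels after a saline injection.

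Among glia other than oligodendrocytes, astrocyte markers had a median of 0.36 (1 of 15 higher) and microglia markers 0.40. Of 16 microglia markers 0 were called by limma, as none reached 2-fold. At an adjusted p under 0.05 alone there were 7, beside 4788 of 24895 over all genes. At an unadjusted p under 0.05 there were 12, beside 8141. In 13 of the 16 the highest mean was that of the amygdala, which held for 3440 of all 24895 genes. The largest were Ctss, a lysosomal protease gene, at 0.89 ± 0.28, and Aif1 at 0.82 ± 0.23. Sox9, an astrocyte transcription factor gene, was called at 1.21 ± 0.19, with its other probes at -0.06, 0.16 and 0.86, and was not called as the mean over probes (0.54).

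The treated channels of the same arrays, from other rats on the same slides, give the same contrast again. At each dose a region has only the 2 arrays of 1 dye swap. They entered these fits as separate values with dye as a covariate, so p-values and counts of calls in treated RNA, and of its difference from saline RNA, measure the spread between arrays that may repeat the same extracts, not between animals. All 724 genes called in saline RNA had the same sign in low-dose and in high-dose RNA, and 598 and 618 of them were called in the same direction. In treated RNA 795 genes were called at the low dose (3.19%) and 880 at the high dose (3.53%). As slide and array are shared, these values do not separate region from slide. The contrast itself differed between treated and saline RNA, by an interaction test in limma, in 70 genes at the low dose (0.282%) and 94 at the high dose (0.379%).

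Avp had the smallest adjusted p of such differences among the genes named. Its amygdala contrast of 2.54 in saline RNA was 0.91 in low-dose and 0.74 in high-dose RNA. Both treated contrasts were short of 2-fold. The amygdala level was 9.44 and 9.12 on the low-dose channels and 9.41 and 9.08 on the high-dose channels, against 10.88 to 11.35 in saline. The other 10 channels had a median of 8.36 and a highest value of 9.16 at the low dose, above 1 amygdala channel. At the high dose these were 8.40 and 8.98. Within arrays the contrast fell by 1.58 at the low dose (limma adjusted p = 2.49e-12) and fell by 1.90 at the high dose (limma adjusted p = 5.84e-14), each over the spread between dye-swap arrays only.

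Choroid plexus genes went the other way. In high-dose RNA Ttr reached 16.36 and 16.61 in the amygdala, and its contrast was 7.24 in place of 5.17, a difference of 2.12 (limma adjusted p = 2.9e-12, again over dye-swap arrays). Sostdc1 reached 14.22 and 13.80, with a difference of 2.09 (limma adjusted p = 9.17e-08). Levels in the other regions entered these differences too. Their highest high-dose channel had 11.78 for Ttr and 9.38 for Sostdc1, against 13.65 and 10.61 in saline RNA. For Kcnj13 it had 8.96 against 8.84. The contrast was also larger at the high dose for Kcnj13 (1.16), Folr1 (1.05) and Clic6 (0.99), and at the low dose for Ttr (0.69) and Kcnj13 (0.56). The median of the 12 choroid plexus markers was 0.90 in saline, 1.16 in low-dose and 2.05 in high-dose RNA, and that of the 13 meningeal genes 1.60, 1.99 and 1.80. The myelin list stayed at -1.40, -1.38 and -1.39. Whether the pieces held different amounts of choroid plexus or the treatment changed these genes was not tested.

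**Figure D4:**
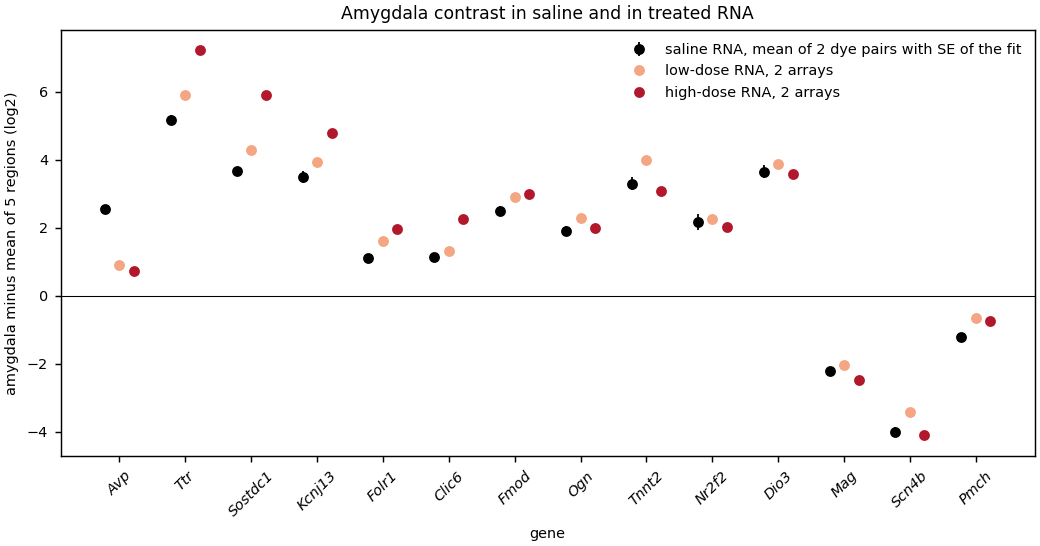
Amygdala minus the mean of the other 5 regions (log2, vertical axis) for 14 genes in saline RNA (black, with the SE of the limma fit), low-dose RNA (light) and high-dose RNA (red). Avp has its largest value in saline RNA, Ttr and Sostdc1 in high-dose RNA, and Nr2f2, Dio3 and Mag did not pass the interaction test.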

How the data were processed

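Scanner output gave spot intensity in both channels with local background, made with Agilent Feature Extraction 9.5.3.1 per the file headers, and deposited without further normalization. Here, background was corrected by normexp (offset 50), ratios were normalised by loess within arrays and Aquantile between them, and the saline channel was taken as log2 (limma 3.58.1, R 4.3.3). Outlier spots were left out. Spots of a probe were averaged, and the brightest probe stood for a gene. Names came from RefSeq's GRCr8 genes, and 21098 of 43379 spots kept the name in the file. Fits used lmFit and eBayes over 12 values with 6 residual degrees of freedom; treated RNA was fitted by dose with dye as a covariate. On simulated data, 99% of log2 changes of 1.5 and 100% of those of 2 were recovered among 15712 genes, with 1 false call. These were brighter genes without outlier spots, with independent noise in each channel and no regional difference in the unchanged genes. Shifts shared by an array or slide were not simulated, so these figures do not cover them.

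Named genes were the 12 most positive and 8 most negative called, the 12 highest and 6 lowest of 6 by gap, and up to 5 called per list. Members and lists were chosen with earlier results of these data known. The difference between the high-dose and low-dose pair of a region correlated between regions at r -0.391 to 0.382 over 15 pairs of regions. For amygdala and ventral striatum it was 0.382. Values of some genes counted in the lists are not reported here.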

Additional observations from a re-analysis of the deposited data

Results flagged for a closer look

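In 20 of the 66 named genes with 4 amygdala values, 1 channel lay far from the other 3, and in each it was replicate 1, the Cy3 channel with a high-dose partner; chance alone would mark about 1 gene in 20. It was the highest for Kcnj13 (11.44), Ccn3 (14.26), Fmod (14.14), Nefh (10.07), Klk6 (10.02), Colec12 (12.52), Neurod2 (11.67), Wfs1 (11.33), Ramp3 (8.79) and Hcn2 (13.13). It was the lowest for Dio3 (11.68), Scn4b (9.03), Pvalb (10.14), Penk (13.16), Vip (13.04), Pmch (8.10), Plxnd1 (11.60), Kcna1 (12.62), Egr2 (10.18) and Col1a2 (13.77).

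The amygdala contrast differed between treated and saline RNA of the same arrays for 10 named genes (interaction test in limma). Each treated value is 1 dye swap whose 2 arrays were fitted as separate values, so these p-values cover the spread between arrays, which may be technical. For Avp the difference was -1.58 at the low dose (adjusted p = 2.49e-12) and -1.90 at the high dose (adjusted p = 5.84e-14). Ttr differed by 0.69 (adjusted p = 0.000594) and 2.12 (adjusted p = 2.9e-12), Kcnj13 by 0.56 (adjusted p = 0.0491) and 1.16 (adjusted p = 4.26e-06), and Pmch by 0.45 (adjusted p = 0.0491) and 0.54 (adjusted p = 0.00583). At the high dose alone, Sostdc1 differed by 2.09 (adjusted p = 9.17e-08), Folr1 by 1.05 (adjusted p = 2.12e-06) and Clic6 by 0.99 (adjusted p = 0.000472). At the low dose alone, Fmod differed by 0.51 (adjusted p = 0.0246), Tnnt2 by 0.48 (adjusted p = 0.0357) and Ogn by 0.37 (adjusted p = 0.0477).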

How the results depend on the processing

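Over up to 27 settings, the 68 named genes were the same in 1652 cases, weaker in 94 and reversed in 1, Foxp1, at 0.40 against midbrain alone. Weaker cases lost the call but kept direction. The setting with the median of the other 5 regions had no test, so its 52 same and 16 weaker cases rest on 2-fold alone. With a replicate block by partner dose all 68 kept their call, and the main fit held no such block. Processed signals gave 1071 higher and 797 lower genes, 121 above and 43 below each region, and 2751, 3749, 5343, 3399 and 2304 genes against cortex, hippocampus, hypothalamus, midbrain and ventral striatum, which turned the order of cortex and ventral striatum and of hippocampus and midbrain. Midbrain alone, on the shared scan day, gave 1104 and 858, beside 1090 and 849 against midbrain in the main fit. Genes above each region numbered 35 where all regions had to be above background and 33 in Cy3 alone, and those against cortex 433 in Cy3 alone. Genes below each region numbered 13 at an offset of 16, 3 in Cy3, 18 in Cy5, 21 in low-dose and 22 in high-dose RNA. Leaving out an amygdala channel, pair or other region gave 50 to 115 genes above and 5 to 33 below each region; the 5 came without amygdala replicate 4. Without cortex there were 115 and 33, without hippocampus 83 above, without midbrain 16 below, and without ventral striatum 100 and 26. With a region left out, a gene had fewer regions to pass. Beyond that, the cause of these shifts was not tested. Dim channels limit low genes: 323 tested genes were not well above background on any amygdala array.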

Other observations

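Some further genes called in the amygdala were picked after their values were seen and are given as values. Genes that bind or break down retinoids joined Aldh1a2 and Cyp26b1: Cyp26a1, a second retinoic acid hydroxylase, was higher by 1.79 ± 0.15 (8.92 to 9.49 in the amygdala, 6.41 to 9.00 elsewhere), Crabp2, which carries retinoic acid in cells, by 1.68 ± 0.16, and the retinol carrier gene Rbp4 by 1.07 ± 0.18, whereas Crabp1 stood at -0.23 ± 0.13 (limma adjusted p = 0.25). Cd74, the invariant chain of class II histocompatibility proteins, was higher than each of the 5 regions, with 10.22 to 10.39 against 7.86 to 9.35 (1.75 ± 0.12). The class II chain gene RT1-Da was higher by 1.38 ± 0.14, and RT1-Db1 (0.86 ± 0.11) and RT1-Bb (0.43 ± 0.12) were not called.

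Besides Nefh, the neurofilament genes Nefm (-1.56 ± 0.12) and Nefl (-1.54 ± 0.13) and the sodium channel gene Scn1a (-1.07 ± 0.17) were lower in the amygdala. Nefm had 13.56 to 14.07 in the amygdala and 14.25 to 16.53 in the other 20 channels. The deiodinase gene Dio2 stood at 0.11 ± 0.12, beside the higher Dio3. Of 41012 probes, 3 held the 10 bases that the probes of Or12j4 and Or10g9b share, those 2 included, and the third was not called lower.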
